A study of Mus musculus with 12 samples.

Results

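Transcripts of 10 genes of the bone morphogenetic protein (BMP) pathway were followed in the epidermis of newborn mice: the ligands Bmp2, Bmp4 and Bmp7, the receptor Bmpr1a, the secreted antagonists Nog and Fst, the target genes Id1, Id2 and Id3, and the inhibitory SMAD gene Smad6. They were taken by gene symbol, and each matched a single identifier among the 46078 genes of the count table. Skin epidermis from 12 newborns gave 12 libraries, 3 for each of 4 genotypes. Every mouse, controls included, had K14-Cre, in which a keratin 14 promoter drives Cre recombinase in basal keratinocytes, so that dermal, vascular, pigment and immune cells in the preparation were not its targets. Llgl cKO Trp53 het mice were flox/flox for both Llgl1 and Llgl2 and had 1 floxed Trp53 allele (+/flox). Llgl cKO mice had only the floxed Llgl genes, Trp53 het mice only the +/flox Trp53 locus, and controls had the Cre alone. Llgl1 and Llgl2 are mammalian relatives of a Drosophila cell polarity gene, and Trp53 encodes the transcription factor p53.

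BMPs are secreted dimers of the TGF-beta superfamily. They bind paired type I and type II receptor kinases, and the type I receptor phosphorylates SMAD1, SMAD5 and SMAD9, which enter the nucleus with SMAD4 and switch on targets such as the Id genes and Smad6. In skin, BMP signals restrain the formation of hair placodes and keep follicle stem cells quiescent, and signalling through BMPR1A is needed for the hair shaft and inner root sheath to differentiate.

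Library totals ran from 6738720 to 14509507 counts. Levels are CPM, each count divided by its TMM-scaled library total and put on a common scale, and a gene was called at an adjusted p below 0.05 in edgeR's quasi-likelihood test over 14582 genes. Llgl2 stood between 6.12 and 12.4 CPM in the 6 libraries with floxed Llgl genes, against 65.4 to 109.9 CPM in the other 6. Llgl1, whose gene-level count does not resolve floxed exons, stood at 187 to 280.1 CPM against 115 to 173 CPM. Trp53 was 60.9 to 115 CPM in the 6 heterozygous libraries and 109 to 130.5 CPM in the other 6. The library labelled Trp53 het 3 held the most Trp53 of the heterozygous libraries, within the range of the others. Control 3 and the library labelled Trp53 het 3 stood apart from the other libraries of their groups, with 20 genes of G2 and M phase summing to 1737 and 2022 CPM, against 285 to 418 CPM in the other 4. Basal keratinocyte markers (8 genes) summed to between 15508 and 21574 CPM in every library, and 10 endothelial markers to between 1.64 and 5.69 CPM.

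Within the epidermis the 10 genes covered a wide range of expression. Per kilobase of exon, averaged over the 12 libraries, the level was 40.5 ± 8.57 CPM for Bmp7 (SD, n = 12), 26.7 ± 3.58 CPM for Id1, 24.3 ± 5.18 CPM for Fst, 20.8 ± 2.58 CPM for Bmpr1a, 18.6 ± 6.82 CPM for Bmp2 and 18.1 ± 5.07 CPM for Id3. The remaining genes were lower per kilobase, with 7.11 ± 2.45 CPM for Bmp4, 4.35 ± 1.07 CPM for Id2, 1.49 ± 0.427 CPM for Smad6 and 0.153 ± 0.0747 CPM for Nog. Bmp7 exceeded Id1 in 12 of 12 libraries, and Id3 exceeded Bmp4 in 12 of 12. Between these steps the neighbours did not separate: Id1 exceeded Fst in 9 of 12 libraries, Fst exceeded Bmpr1a in 8, Bmpr1a exceeded Bmp2 in 7, and Bmp2 exceeded Id3 in 4. Of the 10 genes 9 passed the filter on low counts, and Nog did not. Bmp2, Id1 and Bmp7 all lie on chromosome 2, Bmp4 and Bmpr1a on chromosome 14, and the other 5 on chromosomes 4, 9, 11, 12 and 13.

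**Figure D1:**
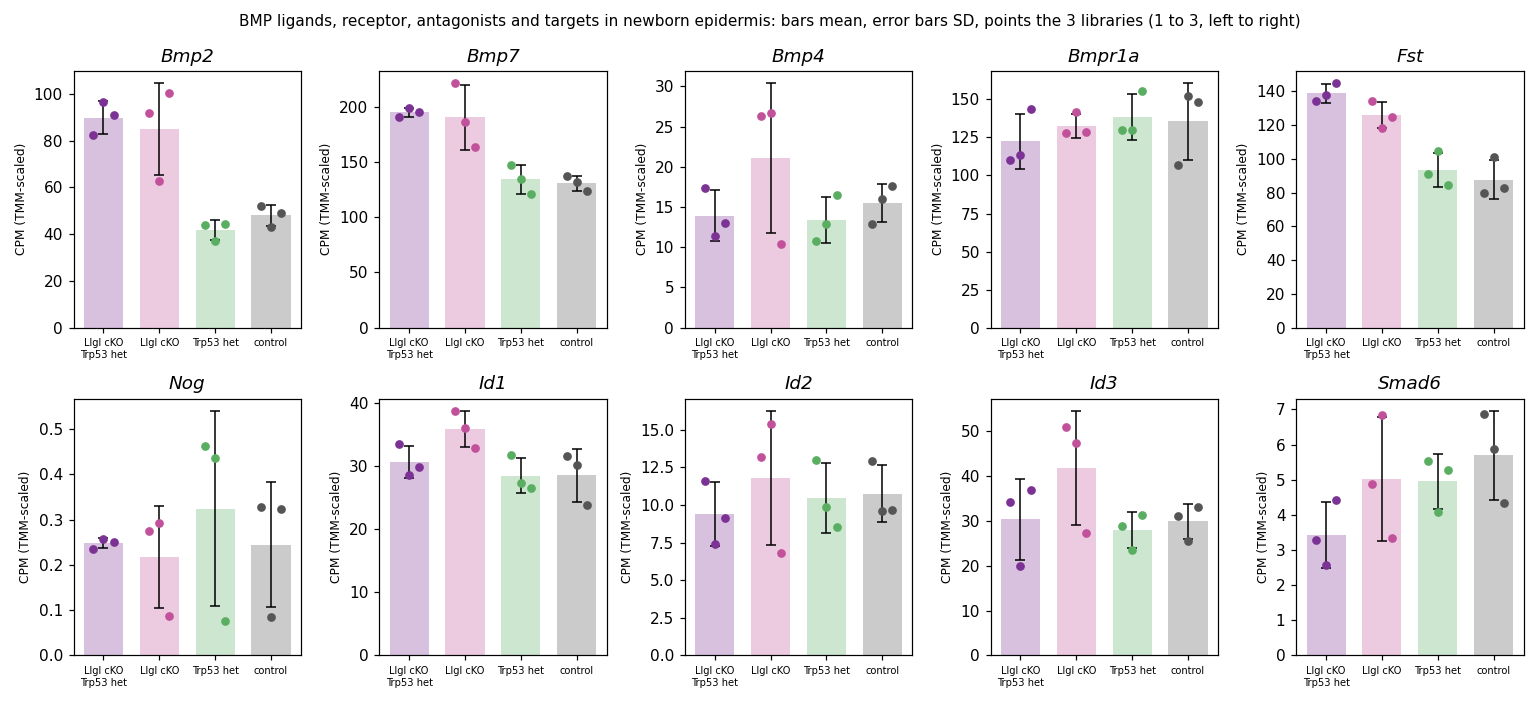
CPM on TMM-scaled library sizes (vertical axis, separate scale for each gene) in the 4 groups. Bars are means, error bars SD and points the 3 libraries of a group. For Bmp2, Bmp7 and Fst the 6 libraries with floxed Llgl genes all lie above the other 6, while Id1, Id2, Id3, Bmp4, Bmpr1a, Smad6 and Nog overlap.

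Among the ligands, Bmp2 and Bmp7 were higher in both groups with floxed Llgl genes, and Bmp4 was not called in any comparison. Bmp2 (ENSMUSG00000027358, chromosome 2, 133552159 to 133562885, GRCm38), a ligand of the placode and hair matrix epithelium, stood at 82.3, 96.5 and 91.0 CPM in Llgl cKO Trp53 het and at 92.0, 62.9 and 100.3 CPM in Llgl cKO. Trp53 het libraries had 44.1, 37.1 and 44.3 CPM and controls 52.0, 43.3 and 49.0 CPM. The 6 libraries with floxed Llgl genes did not overlap the other 6, and Llgl cKO 2 was the lowest of them. The average Llgl effect, the mean of the Llgl contrasts in the 2 Trp53 genotypes (6 against 6 libraries), was a log2 fold change of 0.96 for Bmp2 (SE 0.12, adjusted p = 0.0018, edgeR), or 1.95-fold.

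Bmp7 (ENSMUSG00000008999, chromosome 2, 172868012 to 172940321) belongs to a separate branch of the ligand family and was the most abundant of the 10 genes. It had 191, 199 and 195 CPM in Llgl cKO Trp53 het, 222, 187 and 163 CPM in Llgl cKO, 147, 135 and 121 CPM in Trp53 het, and 137, 132 and 124 CPM in control. The lowest library with floxed Llgl genes, Llgl cKO 3, lay above the highest of the other 6, Trp53 het 1. The average Llgl effect on Bmp7 was 0.54 on the log2 scale (SE 0.088, adjusted p = 0.011, edgeR), or 1.45-fold.

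Bmp4 (ENSMUSG00000021835, chromosome 14, 46383520 to 46390669), the closest relative of Bmp2 and a ligand made largely by dermal condensates and papillae in skin, had 17.4, 11.4 and 13.0 CPM in Llgl cKO Trp53 het and 26.3, 26.7 and 10.4 CPM in Llgl cKO. The values were 10.8, 12.9 and 16.5 CPM in Trp53 het and 12.9, 16.0 and 17.6 CPM in control. All groups overlapped, and Llgl cKO held both the highest libraries and the lowest. The average Llgl effect on Bmp4 was 0.25, with a 95% interval of -0.25 to 0.75 (adjusted p = 0.62, edgeR), which includes changes as large as that of Bmp7. In the annotation Bmp4 overlaps the antisense gene Gm15222, which had 63 counts in all against 2287 for Bmp4, and the strand setting of the counting is not given in the sources used here.

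The receptor gene was not called in any comparison. Bmpr1a (ENSMUSG00000021796, chromosome 14, 34410734 to 34503341) encodes the type I receptor that BMP2 and BMP4 bind with high affinity. It had 122 ± 18.3 CPM in Llgl cKO Trp53 het, 133 ± 7.85 CPM in Llgl cKO, 139 ± 15.0 CPM in Trp53 het and 136 ± 25.2 CPM in control (SD, n = 3). Its libraries overlapped in every pairwise comparison, and the average Llgl effect was -0.11 (95% interval -0.35 to 0.13, adjusted p = 0.66, edgeR). An interval this narrow leaves out a change of the size seen in Bmp7 or Fst in either direction.

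Of the antagonists, Fst was higher with floxed Llgl genes and Nog was barely detected in any library. Fst (ENSMUSG00000021765, chromosome 13, 114452290 to 114458951) encodes follistatin, a secreted protein that binds activins tightly and several BMPs less tightly. Its level was 134, 137 and 145 CPM in Llgl cKO Trp53 het, 134, 118 and 125 CPM in Llgl cKO, 90.9, 104.7 and 84.4 CPM in Trp53 het, and 79.5, 100.8 and 82.5 CPM in control. As for Bmp2 and Bmp7, the 6 libraries with floxed Llgl genes lay above the other 6 without overlap. The average Llgl effect on Fst was 0.55 (SE 0.084, adjusted p = 0.0075, edgeR), or 1.46-fold.

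Nog (ENSMUSG00000048616, chromosome 11, 89300638 to 89302332) encodes noggin, an antagonist that masks the receptor-binding surfaces of BMP2 and BMP4 and comes mostly from the follicle mesenchyme. Nog received 34 counts in all: 3, 3 and 3 in Llgl cKO Trp53 het, 4, 4 and 1 in Llgl cKO, 5, 3 and 1 in Trp53 het, and 2, 1 and 4 in control. At this depth no difference between groups could be detected, and Nog was not tested.

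In the average Llgl effect 3 of the 9 tested genes were thus called, all higher, where 1.18% of all tested genes were called higher and 3.33% in either direction. The same 3 genes were those without overlap between the 6 and 6 libraries, against 2.5% of all tested genes. The genes were chosen with results of these data known, so these shares describe the genes and test nothing about them as a set.

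**Figure D2:**
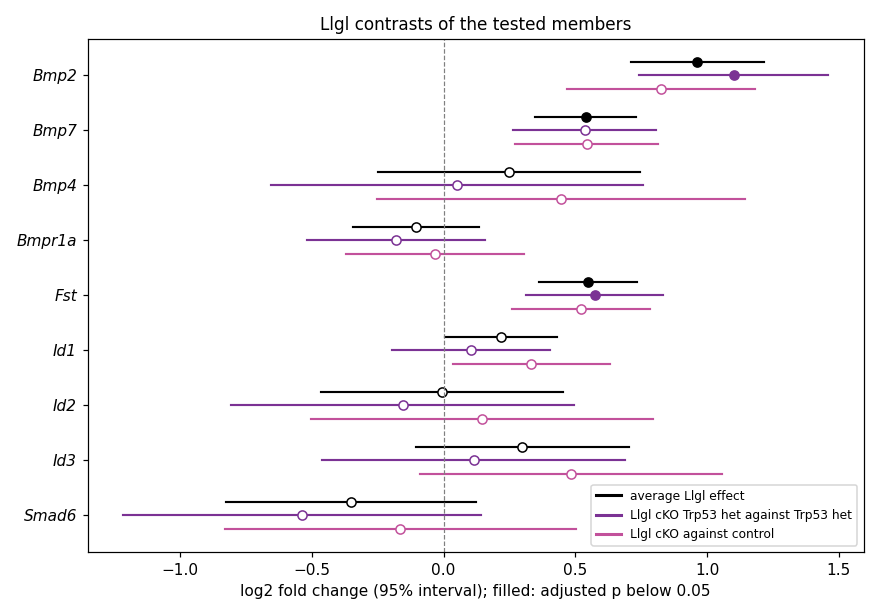
Log2 fold changes (horizontal axis) with 95% intervals for the 9 tested genes in the average Llgl effect (black), Llgl cKO Trp53 het against Trp53 het (purple) and Llgl cKO against control (pink); filled points had an adjusted p below 0.05. The black points of Bmp2 (0.96), Fst (0.55) and Bmp7 (0.54) lie to the right of 0 with intervals that exclude it, and those of Bmpr1a, Id2 and Smad6 lie to its left.

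The pairwise comparisons gave similar sizes with fewer calls, and since they share libraries their values are not independent. In Llgl cKO Trp53 het against Trp53 het, which asks what floxed Llgl genes change in Trp53 heterozygotes, Bmp2 rose by 1.10 on the log2 scale (SE 0.16, adjusted p = 0.012, edgeR) and Fst by 0.57 (SE 0.12, adjusted p = 0.047). Bmp7 stood 0.54 higher there without a call (adjusted p = 0.060). These 2 higher calls among 9 genes compare with 0.439% of all tested genes called higher and 1.36% in either direction. The same 2 genes and Bmp7 did not overlap, as did 20.4% of all tested genes. In Llgl cKO Trp53 het against control, Bmp2 rose by 0.90 and Fst by 0.66 (adjusted p = 0.032 for both, edgeR), and Bmp7 stood 0.58 higher at adjusted p = 0.0504, a difference called in 8 of 21 alternatives. Here 0.343% of all tested genes were called higher and 1.25% in either direction, and these 3 members did not overlap, against 17.1% of all tested genes.

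Llgl cKO against control, which asks the same where Trp53 is intact, gave no call among the 9 genes in edgeR, where 0.226% of all tested genes were called. The log2 fold changes were 0.82 for Bmp2, 0.54 for Bmp7, 0.52 for Fst and 0.33 for Id1 (adjusted p = 0.10, 0.18, 0.18 and 0.72), and these 4 genes had an unadjusted p below 0.05 and did not overlap, against 9.8% of all tested genes. DESeq2 called Bmp2, Bmp7 and Fst in that comparison, where it called 0.683% of all genes it tested. With Llgl cKO 2, the lowest library of Bmp2 there, left out, edgeR called Bmp2 and 0.148% of all tested genes. The 2 Llgl contrasts were compared directly by the interaction, which was 0.28 for Bmp2 (95% interval -0.22 to 0.78), -0.0069 for Bmp7 (-0.39 to 0.38) and 0.052 for Fst (-0.32 to 0.42), with an adjusted p of 1 in edgeR for each.

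The pairwise calls of Bmp2 and Fst depended on single libraries, as did the share of all tested genes that was called. Against control, both were lost without Llgl cKO Trp53 het 2 or 3, Trp53 het 2 or control 1, and that of Bmp2 also without control 2. With any of these libraries left out, 0.168% to 0.29% of all tested genes were called there, against 1.25% as reported. The lowest log2 fold change against control in any alternative was 0.83 for Bmp2 and 0.60 for Fst. Against Trp53 het, both were lost without Llgl cKO Trp53 het 2 or 3 or Trp53 het 1 or 2, and that of Fst, at the edge of the threshold, was lost in 14 of 21 alternatives. Where both were lost, 0.162% to 0.296% of all tested genes were called there, against 1.36% as reported. The lowest log2 fold change against Trp53 het in any alternative was 1.01 for Bmp2 and 0.51 for Fst. The calls of Bmp2, Bmp7 and Fst in the average Llgl effect were kept in all 20 alternatives run for it, with adjusted p up to 0.0094, 0.039 and 0.031.

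Levels of markers of other cells differed between the Llgl genotypes as well. The 10 fibroblast markers summed to 294 to 394 CPM in Llgl cKO Trp53 het, 245 to 337 CPM in Llgl cKO, 113 to 250.5 CPM in Trp53 het and 115 to 257 CPM in control, with Mfap5 at 0 in every library outside Trp53 het and Dpt at 0 in Llgl cKO Trp53 het. Of the 7 tested, 4 were higher and 3 lower in the average Llgl effect, with 1 called higher and a median of 0.18, against -0.0026 for all genes tested. Against Trp53 het, Llgl cKO Trp53 het had 3 of them higher and 4 lower, and their median was -0.11. The 23 hair shaft and inner root sheath genes summed to 186 to 593 CPM in Llgl cKO Trp53 het, 1249 to 4078 CPM in Llgl cKO, 2648 to 6582 CPM in Trp53 het and 1827 to 8093 CPM in control. In the average Llgl effect 18 were called lower, where 2.15% of all tested genes were. In Llgl cKO Trp53 het 17 were called lower against control and 17 against Trp53 het, where 0.905% and 0.919% of all tested genes were. In Llgl cKO against control 0 were called. All 11 T cell markers were lower in the average Llgl effect (median -1.50, 2 called), with sums of 13.7 to 27.4 CPM in Llgl cKO Trp53 het, 9.41 to 19.9 CPM in Llgl cKO, 20.5 to 61.7 CPM in Trp53 het and 30.2 to 44.0 CPM in control. Both tested adipocyte markers, of 5 listed, were called lower (median -3.39), and the 5 summed to 0.335 to 0.769 CPM in Llgl cKO Trp53 het, 1.76 to 3.86 CPM in Llgl cKO, 2.79 to 17.4 CPM in Trp53 het and 2.10 to 29.1 CPM in control, with Cidec at 0 in Llgl cKO Trp53 het. Of 14 hair follicle placode and matrix genes, 9 were higher and 5 lower in the average Llgl effect (median 0.33). Among these 2 were called higher, where 1.18% of all tested genes were, and their sums ran from 3212 to 3834 CPM over the 12 libraries. Of 10 dermal papilla markers 5 were tested, with 4 higher, 1 lower and 0 called (median 0.59), and the 10 summed to 4.74 to 25.5 CPM. In bulk tissue fewer cells of a type and less RNA per cell cannot be told apart. Control 3 and the library labelled Trp53 het 3 had fibroblast sums of 257 and 250.5 CPM, inside the Llgl cKO range. In these 2 libraries Bmp2 was 49.0 and 44.3 CPM, Bmp7 124 and 121 CPM, and Fst 82.5 and 84.4 CPM. The 20 G2 and M phase genes summed to 1247 to 1583 CPM in Llgl cKO Trp53 het and 1057 to 1145 CPM in Llgl cKO, and the only higher sums were those of these 2 libraries. The part of these cell types and of proliferation in the levels of Bmp2, Bmp7 and Fst was not tested.

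**Figure D3:**
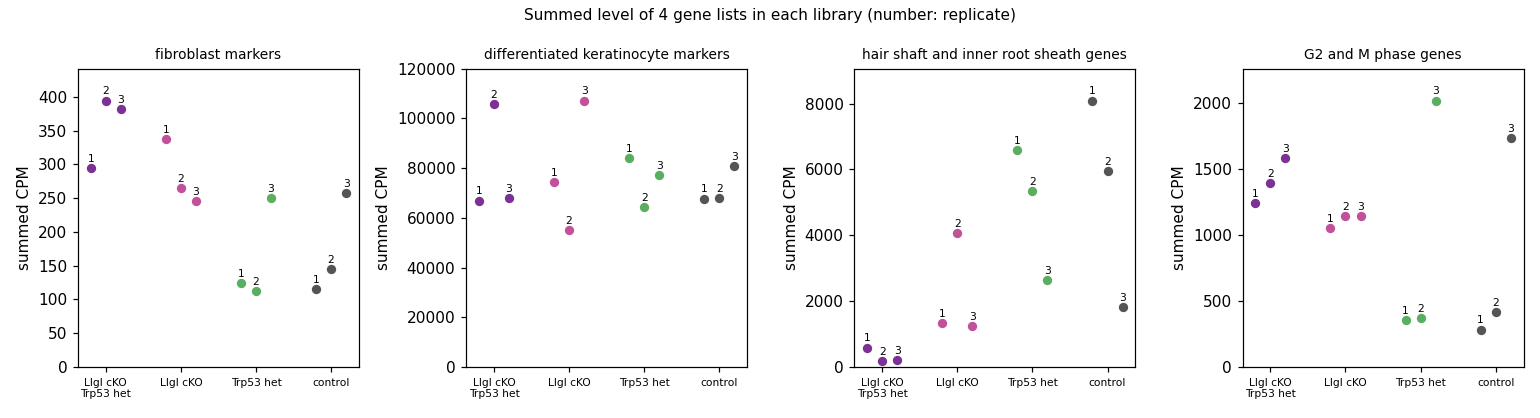
Summed CPM of 4 gene lists (vertical axis from 0) in each library, numbered by replicate, in the 4 groups. Fibroblast markers reach their highest sums in Llgl cKO Trp53 het (294 to 394 CPM). Control 3 (257 CPM) and the library labelled Trp53 het 3 (250.5 CPM) lie inside the Llgl cKO range (245 to 337 CPM). Differentiated keratinocyte markers are highest in Llgl cKO 3 and Llgl cKO Trp53 het 2.

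The Id genes and Smad6 report on BMP signalling in many cells, and none of the 4 was called in any of the 8 comparisons by edgeR or DESeq2. At an unadjusted p below 0.05 edgeR gave Id1 in Llgl cKO against control and in the average Llgl effect, and Smad6 in Llgl cKO Trp53 het against control. Id proteins are helix-loop-helix proteins without a DNA-binding region that capture E proteins, and SMAD6 blocks type I receptors and SMAD1 as negative feedback. RefSeq promoter windows (GRCm38.p6, 250 bases before to 50 after the start site) were at hand for 5 of the 10 genes, namely Bmp4, Bmpr1a, Id2, Id3 and Smad6. Those of the 3 target genes are shown, since they are where SMAD complexes could act. Capitals mark GTCTAGAC, the palindromic SMAD-binding element, and GGCGCC, the core of the GC-rich element in known BMP response elements.
Smad6, chr9:64022010-64022309, minus strand: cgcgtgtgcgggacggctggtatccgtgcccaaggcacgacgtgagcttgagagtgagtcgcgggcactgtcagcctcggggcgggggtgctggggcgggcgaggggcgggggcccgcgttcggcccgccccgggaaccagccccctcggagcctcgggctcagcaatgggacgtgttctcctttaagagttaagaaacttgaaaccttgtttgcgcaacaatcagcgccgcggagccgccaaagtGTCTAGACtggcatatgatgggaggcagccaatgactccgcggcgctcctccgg
Id2, chr12:25096043-25096342, minus strand: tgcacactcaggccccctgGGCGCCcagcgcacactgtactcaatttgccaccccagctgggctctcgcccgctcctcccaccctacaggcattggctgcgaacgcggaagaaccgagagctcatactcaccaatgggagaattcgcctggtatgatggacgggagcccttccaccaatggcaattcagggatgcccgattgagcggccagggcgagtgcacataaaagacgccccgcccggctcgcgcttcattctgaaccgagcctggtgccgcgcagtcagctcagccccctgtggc
Id3, chr4:136143572-136143871, plus strand: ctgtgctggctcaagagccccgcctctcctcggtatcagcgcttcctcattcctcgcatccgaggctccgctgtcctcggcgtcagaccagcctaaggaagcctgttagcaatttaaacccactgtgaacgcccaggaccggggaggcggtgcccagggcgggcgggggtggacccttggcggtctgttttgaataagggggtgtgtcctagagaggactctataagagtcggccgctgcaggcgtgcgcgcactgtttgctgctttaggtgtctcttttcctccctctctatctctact

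The Smad6 window holds GTCTAGAC starting 4 bases before the start site, a motif found in 0.213% of 32851 promoter windows of the same length. The Id2 window holds GGCGCC 231 bases before the start site, as does that of Bmpr1a at 198 bases, against 11.9% of all windows. The Id3 and Bmp4 windows hold neither. A composite of GGCGNC and, after 5 further bases, GTCT was found in 0.244% of windows and is in none of the 5. Each motif was searched on both strands, GTCTAGAC and GGCGCC read the same on both, and the composite can overlap GGCGCC and GTCTAGAC. Such matches describe these letters only.

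Id1 (ENSMUSG00000042745, chromosome 2, 152736251 to 152737410), the most abundant Id gene of the members per kilobase, had 33.6, 28.6 and 29.9 CPM in Llgl cKO Trp53 het, 38.8, 36.1 and 32.9 CPM in Llgl cKO, 31.8, 27.3 and 26.6 CPM in Trp53 het, and 31.7, 30.2 and 23.9 CPM in control. The Llgl cKO libraries lay above all Trp53 het and control libraries, and Llgl cKO Trp53 het overlapped both. Its average Llgl effect was 0.22 (95% interval 0.0072 to 0.43), which was not called (adjusted p = 0.26, edgeR).

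Id3 (ENSMUSG00000007872, chromosome 4, 136143497 to 136145755) had 34.1, 19.9 and 36.8 CPM in Llgl cKO Trp53 het, 50.8, 47.3 and 27.2 CPM in Llgl cKO, 28.9, 23.5 and 31.3 CPM in Trp53 het, and 31.1, 25.6 and 33.0 CPM in control. The groups overlapped, with the 2 highest libraries in Llgl cKO and the lowest in Llgl cKO Trp53 het. For Id3 the average Llgl effect was 0.30 (95% interval -0.11 to 0.70, adjusted p = 0.43, edgeR).

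Id2 (ENSMUSG00000020644, chromosome 12, 25093799 to 25097140), which Langerhans cells also express and need, had 11.6, 7.43 and 9.13 CPM in Llgl cKO Trp53 het, 13.2, 15.4 and 6.78 CPM in Llgl cKO, 13.0, 9.88 and 8.51 CPM in Trp53 het, and 12.9, 9.61 and 9.67 CPM in control. Llgl cKO again spanned the whole range, from the lowest to the highest of the 12. The average Llgl effect on Id2 was -0.0045 (95% interval -0.46 to 0.45, adjusted p = 0.99, edgeR).

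Smad6 (ENSMUSG00000036867, chromosome 9, 63953076 to 64022059) was the least abundant of the 4 targets. Its values were 3.30, 2.56 and 4.44 CPM in Llgl cKO Trp53 het, 4.88, 6.85 and 3.35 CPM in Llgl cKO, 5.54, 4.07 and 5.27 CPM in Trp53 het, and 6.87, 5.87 and 4.35 CPM in control, from 28 to 94 counts per library. The groups overlapped, and the lowest 2 libraries were in Llgl cKO Trp53 het. Against control the log2 fold change in Llgl cKO Trp53 het was -0.72 (SE 0.31), and it was not called (unadjusted p = 0.040, adjusted p = 0.33, edgeR). For Smad6 the average Llgl effect was -0.35 (95% interval -0.83 to 0.12, adjusted p = 0.43). In Llgl cKO Trp53 het against control, Id1, Id3 and Id2 stood at 0.11, 0.020 and -0.18, beside 0.66 for Fst and 0.58 for Bmp7. In Llgl cKO against control, Id3, Id1, Id2 and Smad6 stood at 0.48, 0.33, 0.15 and -0.16, beside 0.52 for Fst and 0.54 for Bmp7, so that Id3 was there close to both in size, with a wider interval (-0.089 to 1.06).

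The genes also varied within groups, and in both groups with floxed Llgl genes Bmp4 and the 4 targets were lowest in the same library. In Llgl cKO, replicate 3 was the lowest library for 6 of the 9 tested genes (Bmp4, Bmp7, Id1, Id2, Id3 and Smad6). In Llgl cKO Trp53 het, replicate 2 was the lowest for 5 (Bmp4, Id1, Id2, Id3 and Smad6). No library of Trp53 het or control was the lowest of its group for more than 4. Within Llgl cKO the highest library exceeded the lowest 2.57 times for Bmp4, 2.27 times for Id2, 2.05 times for Smad6 and 1.87 times for Id3, against 1.13 times for Fst and 1.18 times for Id1.

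Those same 2 libraries were the highest of the 12 for differentiated keratinocyte markers. The 9 markers in the table summed to 107151 CPM in Llgl cKO 3 and 105679 CPM in Llgl cKO Trp53 het 2, against 55001 to 84079 CPM in the other 10. They were also the lowest of their groups for 8 melanocyte markers, at 363 and 291 CPM. The same held for the hair shaft and inner root sheath genes (1249 and 186 CPM) and the placode and matrix genes (3298 and 3212 CPM). For basal keratinocyte markers these 2 libraries were the highest of their groups, at 17606 and 21574 CPM. The part of these differences in the levels of Bmp4, Id2, Id3 and Smad6 was not tested.

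**Figure D4:**
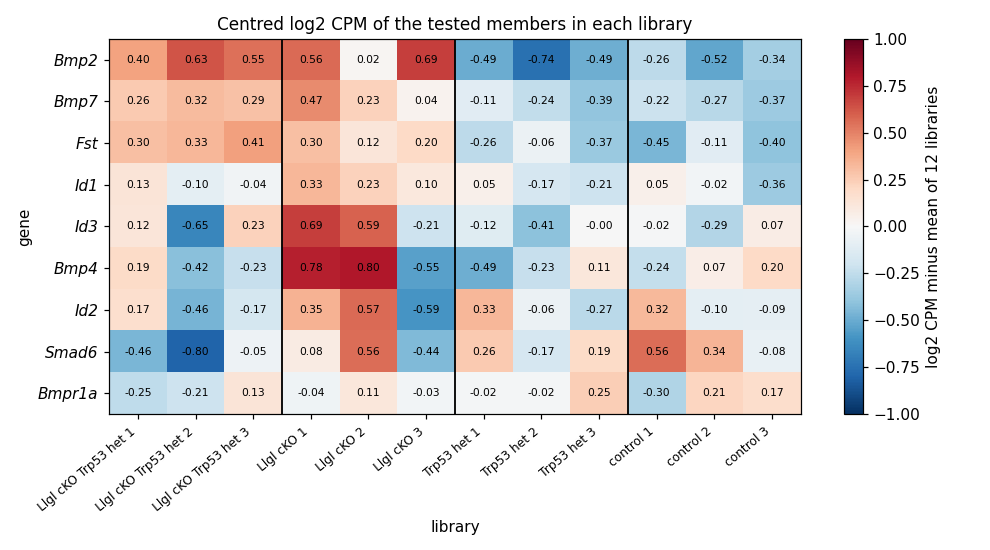
Log2 CPM minus the mean of the 12 libraries, for the 9 tested genes (rows) in each library (columns, divided by group), with red above and blue below the mean. The rows of Bmp2, Bmp7 and Fst are positive in the 6 libraries with floxed Llgl genes and negative in the other 6, whereas Bmp4 and Id2 are negative in Llgl cKO 3 (-0.55 and -0.59) and positive in Llgl cKO 2 (0.80 and 0.57).

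Trp53 genotype went with no called change in these genes, nor in Trp53 itself. The average Trp53 effect on Trp53 was -0.61 (95% interval -0.97 to -0.25, unadjusted p = 0.0033, edgeR). The library labelled Trp53 het 3 lay within the Trp53 range of the libraries without a floxed Trp53 allele. A lack of calls here therefore does not show a lack of change. In Trp53 het against control, in Llgl cKO Trp53 het against Llgl cKO, in the average Trp53 effect and in the interaction, 0 of 9 were called by edgeR, 0 had an unadjusted p below 0.05, and 0 were called by DESeq2. Of all tested genes 0% were called by edgeR in each of these 4, with 63, 747, 316 and 428 genes at an unadjusted p below 0.05 in the order given, and DESeq2 called 0, 48, 0 and 0. None of the 9 genes was without overlap in Trp53 het against control or in the average Trp53 effect, where 3.02% and 0.0206% of all tested genes were. The average Trp53 effect was -0.058 for Bmp2 (95% interval -0.31 to 0.19), 0.036 for Bmp7 (-0.16 to 0.23) and 0.12 for Fst (-0.069 to 0.30). For Bmp4, Smad6 and Id3 it was -0.41, -0.37 and -0.28, with wider intervals (-0.90 to 0.089 for Bmp4), so that a change of that size could not be told from 0 with 6 against 6 libraries. In Llgl cKO Trp53 het against Llgl cKO the 9 genes overlapped without exception, where 11% of all tested genes did not.

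Beyond these genes, 52 further genes of the pathway were examined, of which 38 passed the filter. In the average Llgl effect 0 of the 38 were called higher and 2 lower by edgeR, where 1.18% and 2.15% of all tested genes were, and 7 of the 38 had an unadjusted p below 0.05. DESeq2 called the same 2, where it called 6.03% of all genes it tested. Their median was -0.0082, against -0.0026 for all genes tested. Among 10 receptors and co-receptors, Acvrl1, a type I receptor best known from endothelium, had 6.65 ± 1.11 CPM in Llgl cKO Trp53 het, 4.31 ± 0.31 CPM in Llgl cKO, 7.74 ± 0.47 CPM in Trp53 het and 8.68 ± 0.70 CPM in control (SD, n = 3). Acvrl1 was lower in the average Llgl effect (log2 fold change -0.61, SE 0.13, adjusted p = 0.025, edgeR), a call lost in 9 of 20 alternatives, and its lowest group was Llgl cKO. The co-receptor Eng, also endothelial, stood 0.43 higher without a call (adjusted p = 0.28).

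Only 3 of 11 other ligands passed the filter, and the 11 together summed to 3.93 to 5.02 CPM in Llgl cKO Trp53 het, 4.67 to 8.09 CPM in Llgl cKO, 5.72 to 9.33 CPM in Trp53 het and 6.45 to 10.5 CPM in control. Bmp10 and Gdf2 had 0 counts in every group. Bmp8a, a relative of Bmp7 whose reads its close paralogue Bmp8b could share, had 6, 1 and 1 counts in Llgl cKO Trp53 het, 18, 45 and 9 in Llgl cKO, 35, 15 and 23 in Trp53 het, and 17, 44 and 22 in control. It was lower in Llgl cKO Trp53 het than in control (-3.60) and than in Trp53 het (-3.38; adjusted p = 0.042 and 0.048, edgeR), and these calls were lost in 7 and 8 of 21 alternatives. In Llgl cKO against control Bmp8a stood at -0.63 and was not called (adjusted p = 0.95, edgeR), nor was its interaction of -2.76. Its average Llgl effect of -2.01 was called (adjusted p = 0.038, edgeR), and that call was lost in 8 of 20. Bmp3, a ligand that opposes other BMPs, stood at -0.45 (adjusted p = 0.47).

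None of 10 tested antagonists and modulators and none of 10 SMADs and SMAD regulators was called in any comparison by edgeR or DESeq2, with 2 of each at an unadjusted p below 0.05 in the average Llgl effect (edgeR). Bambi, a decoy receptor, was nearest among the antagonists at -0.65 (adjusted p = 0.15), with 8.87, 5.72 and 7.79 CPM in Llgl cKO Trp53 het, 9.48, 18.4 and 7.40 CPM in Llgl cKO, 17.4, 13.5 and 12.6 CPM in Trp53 het and 15.5, 18.3 and 11.2 CPM in control. Crim1, a membrane protein that binds BMPs, stood at 0.35 (adjusted p = 0.24). The shared signal carrier Smad4 and the SMAD co-repressor Ski stood at 0.31 and 0.30 (adjusted p = 0.14 for both, edgeR). The 6 libraries of Ski with floxed Llgl genes did not overlap the other 6. This held for 1 of the 38 further genes tested, against 2.5% of all tested genes.

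The 5 other target genes that were tested (Id4, Msx1, Msx2, Dlx3 and Atoh8) had log2 fold changes of opposite sign in the Llgl contrasts, without a called interaction. All 5 were lower in Llgl cKO Trp53 het than in Trp53 het, with a median of -0.76 and 1 called, where 50.2% of all tested genes were higher and their median was 0.0012. All 5 were higher in Llgl cKO than in control, as were 48.8% of all tested genes, with a median of 0.21. In that comparison 0 were called by edgeR or DESeq2, and 0 had an unadjusted p below 0.05. Id4, the remaining Id gene, had 32.5, 34.7 and 22.7 CPM in Llgl cKO Trp53 het, 48.8, 45.7 and 72.0 CPM in Llgl cKO, 73.7, 56.8 and 53.7 CPM in Trp53 het, and 52.2, 60.4 and 43.6 CPM in control. Llgl cKO Trp53 het lay below each of the other groups without overlap. Taken singly, its comparisons with control, Trp53 het and Llgl cKO had 17.1%, 20.4% and 11% of all tested genes without overlap in either direction.

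Id4 fell by 1.04 in Llgl cKO Trp53 het against Trp53 het (SE 0.22, adjusted p = 0.048, edgeR), a call lost in 10 of 21 alternatives. Its interaction of -1.13 was not called (unadjusted p = 0.0034, adjusted p = 1), nor was that of Msx2, a homeobox gene of the hair matrix, at -1.21 (adjusted p = 1). Msx2 had 9.78 ± 3.83 CPM in Llgl cKO Trp53 het, 23.4 ± 11.7 CPM in Llgl cKO, 19.5 ± 1.36 CPM in Trp53 het and 20.2 ± 1.26 CPM in control. The hair shaft sums given above were likewise lowest in Llgl cKO Trp53 het, and their part in these levels was not tested.

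**Figure D5:**
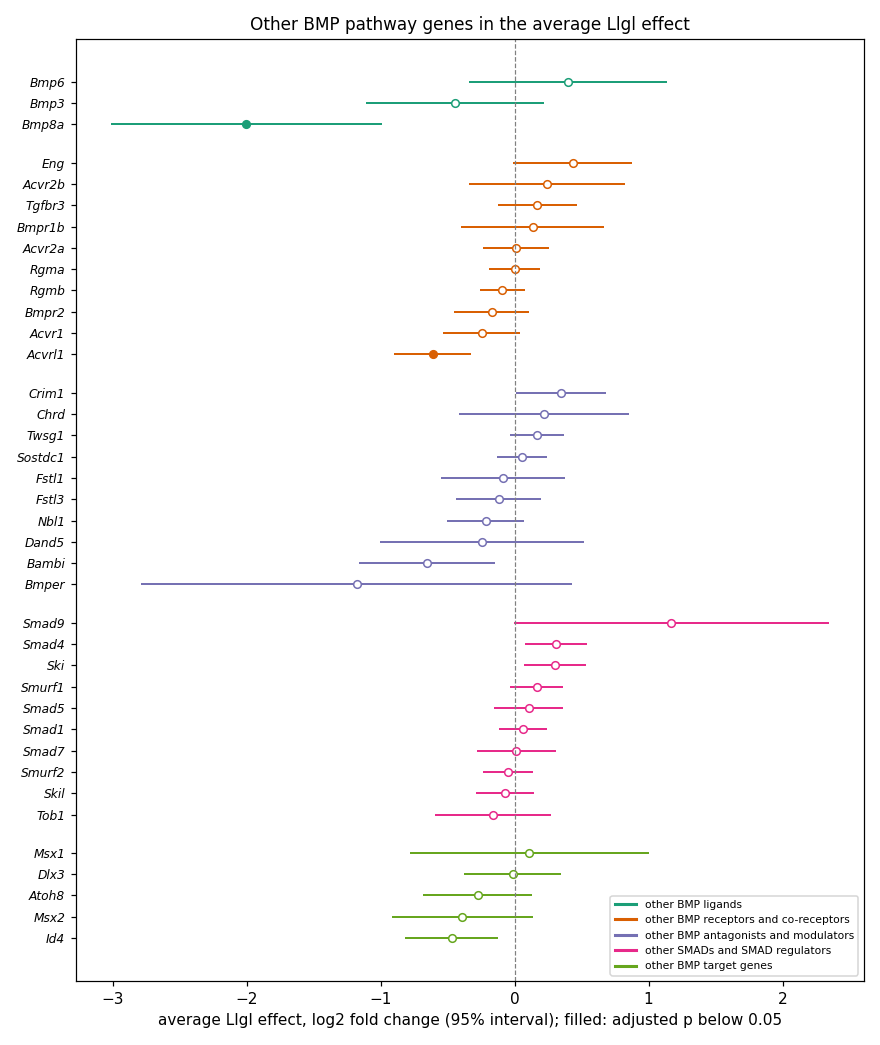
Average Llgl effect (log2 fold change, horizontal axis, with 95% intervals) for the 38 other BMP pathway genes that were tested, grouped by role; filled points had an adjusted p below 0.05. The filled points are Acvrl1 (-0.61) and Bmp8a (-2.01), and most other intervals include 0.

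The genes whose profile over the 12 libraries came closest to each called gene were found by the root mean square difference of centred log2 CPM, among 10441 named genes with a mean of at least 5 CPM. For Bmp2 these were H6pd (0.19), Smim19 (0.22) and Dera (0.22), where the median over all candidates was 0.55. Fst came closest to Tvp23b (0.10), Nat9 (0.12) and Mmp2 (0.12), and Bmp7 to Apcdd1 (0.11), Foxp1 (0.11) and Atp5sl (0.12), with medians of 0.37 and 0.36. Genes of low variance are near to one another by this measure, and the libraries share their genotype groups.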

How the data were processed

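Total RNA of newborn mouse epidermis was made into stranded mRNA libraries, per the labels' protocols. The submitters' processing notes name GRCm38, STAR, DESeq2 2.11.40.8 and featureCounts 1.6.4; annotation release, strand setting and filters are not given in the sources used here. The authors deposited raw, unnormalized gene counts for 46078 genes, and each of its 12 sample columns was used. Positions and summed exon lengths came from GENCODE mouse release M21 (GRCm38), which matched 45229 identifiers.

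The analysis ran in edgeR 4.0.16 (R 4.3.3): TMM scaling, filterByExpr (minimum count 10), and a robust quasi-likelihood fit of group means to 12 libraries with 8 residual degrees of freedom. Adjusted p-values are Benjamini-Hochberg over 14582 tested genes, and the biological coefficient of variation was 23.8%. Log2 CPM used a prior count of 2. The fit was also run on simulated counts with an Llgl effect alone and no libraries that stood apart, and the outcome is not used here. Alternatives were DESeq2 1.42.0, 2 other scalings, 2 other filters, only the groups compared, a replicate block and left-out libraries. The p-values measure the spread between mice.

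The members and gene lists were chosen with earlier results of these data known. Named genes were the members, other listed pathway genes that were called, and the 2 of each list with the smallest p in the average Llgl effect. Bmp10, Gdf2, Msx1, Dlx3, Atoh8, Mfap5, Dpt and Cidec were named after their values were seen.

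Replicates of the same number in Trp53 het and control deviated together from their group means (correlations across genes of 0.619, 0.207 and 0.824). The reported comparisons did not use these numbers as pairs. Replicate number entered only the alternative with a replicate block, and the labels do not say that the mice were paired. With 3 libraries in a group, 1 library that stands apart in each can raise all 3 correlations, as control 3 and the library labelled Trp53 het 3 did stand apart. The correlations therefore cannot show that the mice were paired. In the other pairs of groups they ran from -0.345 to 0.181.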

Additional observations from a re-analysis of the deposited data

How the results depend on the processing

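Without exception, Bmp2, Bmp7 and Fst were the 3 members called in the average Llgl effect under the 20 alternatives run for it. For Llgl cKO against control, edgeR with TMM called 0 members, against 3 by DESeq2, 1 without a low-count filter, 1 without control 3 and the library labelled Trp53 het 3, and 0 to 1 when each library was left out in turn. For Llgl cKO Trp53 het against control, the 2 calls became 1 with only the groups compared and 0 to 3 with a library left out, and with Bmp7 they were 3 by DESeq2, with upper-quartile factors, with the filter of 1 CPM, and without control 3 and the library labelled Trp53 het 3. For Llgl cKO Trp53 het against Trp53 het, the 2 calls became 1 without a low-count filter, 1 with only the groups compared, 1 without the library labelled Trp53 het 3 and Llgl cKO Trp53 het 1 (an alternative chosen after seeing the data), and 0 to 2 with a library left out, and with Bmp7 they were 3 by DESeq2. Over all genes DESeq2 called 0.683% in Llgl cKO against control, 3.72% in Llgl cKO Trp53 het against control and 4.31% against Trp53 het. The shares in edgeR were 0.226%, 1.25% and 1.36%. Without control 3 and the library labelled Trp53 het 3, edgeR called 2.8%, 7.72% and 7.37% in the same order. The cause of these differences in calls was not tested.

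With the replicate number as a block, Bmp7 was also called in Llgl cKO Trp53 het against control (0.58, adjusted p = 0.023) and against Trp53 het (0.54, adjusted p = 0.030). No other call of a member changed. Over all genes the block raised the calls there to 2.38% and 2.58%, against 1.25% and 1.36% as reported. It joins libraries of the same number in all 4 groups, also where these did not deviate together. Trp53 het against control, whose libraries of the same number did deviate together, stayed at 0 calls with the block. No called difference of a member changed sign in these alternatives. Counts over all genes in the average Llgl effect ran from 164 to 2334 across the alternatives, against 485 as reported. Depth limits Nog (1 to 5 counts per library) and Smad6 most.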
